A study of Mus musculus with 2 samples.

Results

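Checkpoint receptors and the factor Tox form a set of 8 genes of the 34097 in the count tables: Pdcd1 (ENSMUSG00000026285), Havcr2, Lag3, Tigit, Ctla4, Entpd1, Tox and Cd96. They were chosen by symbol as receptors and a nuclear factor linked to T cell exhaustion, and their UMIs were summed in lymphocytes and macrophages. A UMI (unique molecular identifier) marks 1 captured RNA molecule. Single-cell RNA came from tumours in mice, described by the submitters as xenografts of LLC, the Lewis lung carcinoma line. One library carried the label control and no named agent. The library called knockdown here was labelled with a short hairpin RNA meant to lower Gfpt2, an enzyme of hexosamine synthesis. The labels give no hairpin sequence, clone, mouse strain, age, sex or number of animals. Each group had 1 library, so replicate error is unknown, no test was run, and every interval below (95%) covers counting error only.

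Checkpoint receptors are surface proteins that dampen lymphocyte activation when they meet ligands on tumour or myeloid cells. Activated T cells carry them for a short time, and T cells that meet their antigen for long periods keep several at once, a state called exhaustion. Tox is a DNA-binding protein known for its part in setting up that state, and Entpd1 (CD39) is an enzyme that breaks down extracellular ATP and is used as a marker of it.

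After filtering, 10662 control and 11450 knockdown cells remained, with 138972698 and 118549975 UMIs and median depths of 9371.5 and 7169 UMIs per cell, and 37 barcodes occurred in both libraries. Gfpt2, which checks the labels, had 244 UMIs in control and 68 in knockdown cells, 1.76 and 0.574 CPM (UMIs of a gene over all UMIs of the same cells, scaled to a common depth), a log2 ratio of -1.61 (-2.02 to -1.22). Cells were sorted into classes by their own counts. CD8 T cells held at least 2 UMIs of Cd3d, Cd3e and Cd3g together and at least 1 of Cd8a and Cd8b1, without Cd4 or Foxp3 (419 control, 350 knockdown). CD4 T cells held Cd3 and Cd4 without Cd8 or Foxp3 (31 and 22), regulatory T cells held Cd3 and Foxp3 (19 and 13), and T cells with Cd3 alone were kept as a comparison (192 and 160). NK cells held at least 2 UMIs of Ncr1, Klrb1c and Klre1 together without Cd3 (49 and 49). Macrophages held at least 10 UMIs of C1qa, C1qb and C1qc per 10000 (3866 and 4413). Cells past both a lymphocyte and the macrophage gate (124 and 143) were left out. Tumour-like cells, which held Hmga2 and no Ptprc, Xist or Cd3, served as background (3544 and 3610).

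The classes were read against marker lists. In CD8 T cells all 7 T cell markers read (Trac, Trbc1, Trbc2, Cd2, Lck, Cd247, Thy1) were detected, at a summed level of 2213 CPM in control and 2122 CPM in knockdown cells. Of 12 NK markers, 9 were also detected in CD8 T cells of each library, at a summed 983 and 929 CPM, with Ncr1, Klra8 and Khdc1a at 0. CD8 T cells also held 6 tumour-like markers at a summed 85.2 and 103 CPM, against 282 and 297 CPM in tumour-like cells. For 11 macrophage markers the sums were 1093 and 934 CPM, against 87992 and 73047 CPM in macrophages. All 9 NK markers that are not gate genes were detected in the NK class of each library, at a summed 7407 and 8984 CPM. Detection alone does not mark the class, since macrophages held 8 of the 9, at 5571 and 4548 CPM. In CD8 T cells 7 of the 9 were detected, at 865 and 777 CPM. The 7 T cell markers were at 926 and 997 CPM in the NK class. Depth was close between the libraries in CD8 T cells, with medians of 3230 and 3045 UMIs, and in NK cells, with 4752 and 4571. CD8 T cells were 3.93% of kept control cells (3.57 to 4.32) and 3.06% of kept knockdown cells (2.75 to 3.39). A share of 39.9% of control and 35.1% of knockdown CD8 T cells held Mki67 or Top2a, genes of cell division.

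In CD8 T cells the knockdown library had higher levels of 2 receptors, Havcr2 and Lag3, while Pdcd1 and Tox were close in both libraries. Havcr2, which encodes TIM-3, had 104 UMIs in control and 154 in knockdown cells, 49.5 CPM (40.4 to 59.97) against 93.5 CPM (79.3 to 109). The intervals do not overlap, and the log2 ratio was 0.92 (0.55 to 1.29). Lag3, a receptor that binds MHC class II and other ligands, had 151 UMIs and 71.9 CPM (60.9 to 84.3) in the control library. In the knockdown library it had 217 UMIs and 132 CPM (115 to 150), a log2 ratio of 0.87 (0.57 to 1.18). These are the members called higher, where a call means at least 1.5-fold with an interval that leaves out no change. So 2 of 8 members were called higher and 0 lower, while 3.29% of the 10361 genes with at least 20 UMIs in these cells were called higher by the same rule. At 2-fold no member was called, beside 1.4% of genes. Lower calls covered 2.38% of genes.

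Pdcd1, which encodes PD-1, had 367 and 325 UMIs, 175 CPM (157 to 193) in the control and 197 CPM (176 to 220) in knockdown cells, with a log2 ratio of 0.18 (-0.04 to 0.40). Ctla4, which competes with the costimulatory receptor Cd28 for Cd80 and Cd86, had 207 and 210 UMIs, or 98.5 CPM (85.6 to 113) and 127 CPM (111 to 146). Its log2 ratio of 0.37 (0.09 to 0.66) left out 0 but stayed under the 1.5-fold rule. Tigit and Cd96, receptors for nectin-like ligands such as Pvr, were measured at fewer UMIs. Tigit had 38 UMIs in control and 40 in knockdown cells, 18.1 and 24.3 CPM, with a log2 ratio of 0.42 (-0.25 to 1.10). Cd96 had 125 and 87 UMIs, 59.5 and 52.8 CPM, and was the member with a negative log2 ratio, -0.17 (-0.58 to 0.24). For both genes the intervals of the libraries overlap.

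Entpd1 had 120 UMIs in control and 116 in knockdown cells, 57.1 CPM (47.4 to 68.3) and 70.4 CPM (58.2 to 84.5), a log2 ratio of 0.30 (-0.08 to 0.68). Tox had 806 and 706 UMIs, 384 CPM (358 to 411) and 429 CPM (398 to 461), a log2 ratio of 0.16 (0.01 to 0.31), so the libraries lay close together. Over the 8 members 7 log2 ratios were above 0, with a median of 0.34, beside a median of 0.03 over all 10361 genes. Leaving out the 5% of cells with the most UMIs, a setting added after the data were seen, gave a median of 0.31 with 2 members called.

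**Figure D1:**
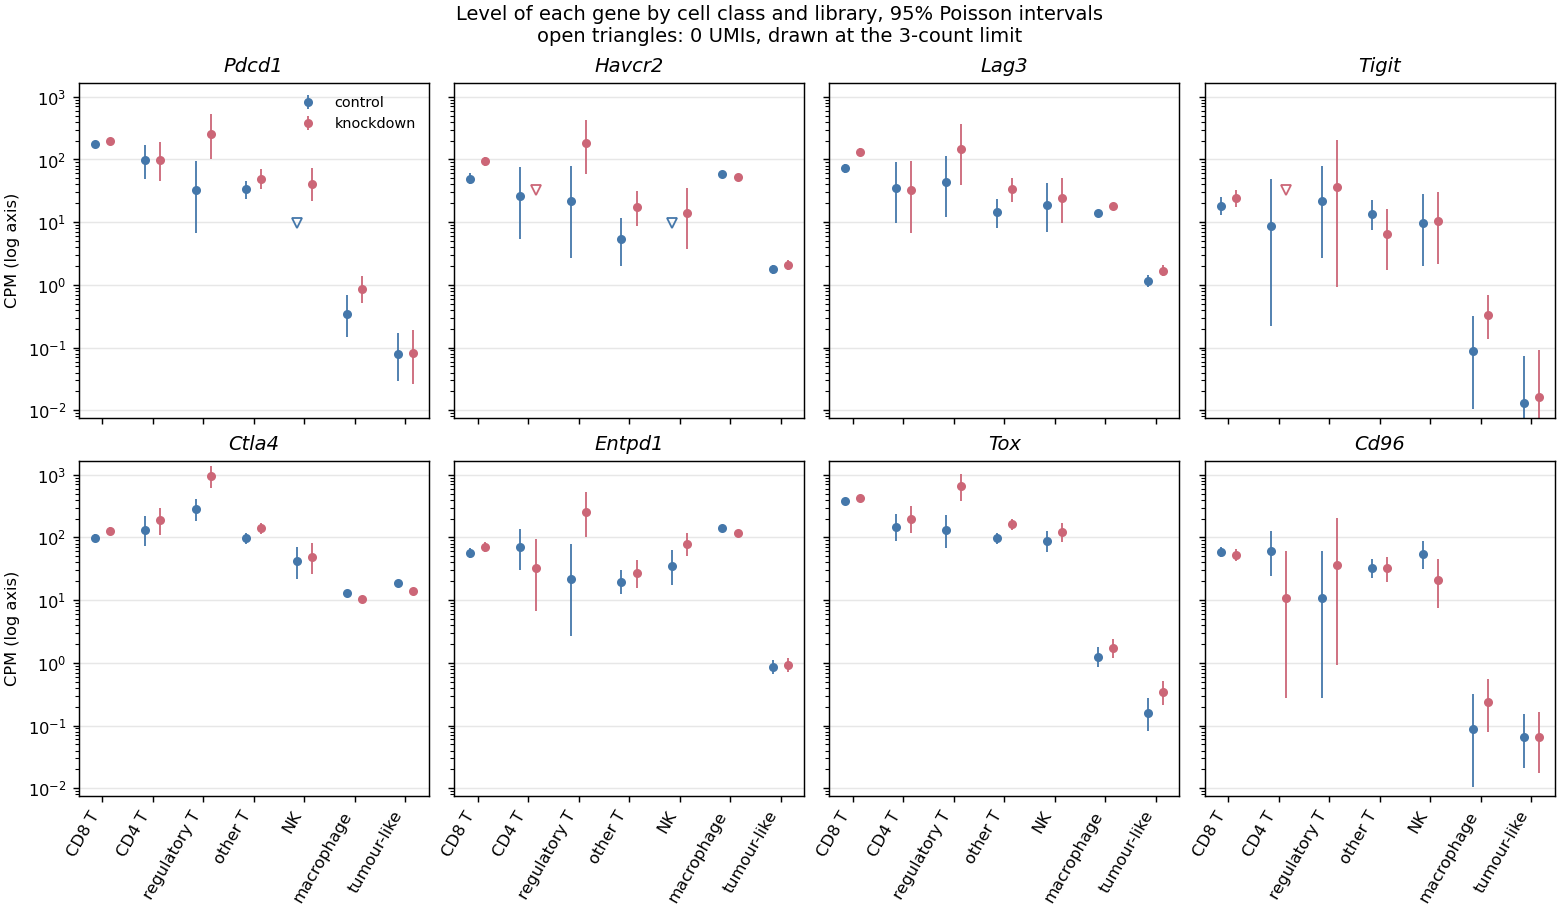
Level of each gene in CPM (vertical log axis) in 7 cell classes, control in blue and knockdown in red, with 95% Poisson intervals; open triangles stand for 0 UMIs and sit at the 3-count limit. In CD8 T cells the Havcr2 and Lag3 points of the libraries are apart, at 49.5 and 93.5 CPM and at 71.9 and 132 CPM, while Havcr2 and Entpd1 also sit high in macrophages and Ctla4 does not drop to the floor in tumour-like cells.

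The promoters of Havcr2 and Pdcd1 are shown because Havcr2 was called higher and Pdcd1 was not in the same CD8 T cells. Ctla4 is shown because it was also counted outside lymphocytes. Each sequence holds the 250 bases before the annotated start, 5′ to 3′ on the gene's strand, from RefSeq on GRCm38.p6, where 6 of the 8 members had an entry and Lag3 and Tox had none. The build behind the deposited counts is not given in the sources used here. Capitals mark matches on either strand to the letters of 7 motifs searched.
Havcr2: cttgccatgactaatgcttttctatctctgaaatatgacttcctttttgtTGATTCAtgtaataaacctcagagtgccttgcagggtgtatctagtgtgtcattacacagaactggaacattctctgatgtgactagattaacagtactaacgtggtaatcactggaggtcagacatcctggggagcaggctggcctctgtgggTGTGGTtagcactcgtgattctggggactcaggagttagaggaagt
Pdcd1: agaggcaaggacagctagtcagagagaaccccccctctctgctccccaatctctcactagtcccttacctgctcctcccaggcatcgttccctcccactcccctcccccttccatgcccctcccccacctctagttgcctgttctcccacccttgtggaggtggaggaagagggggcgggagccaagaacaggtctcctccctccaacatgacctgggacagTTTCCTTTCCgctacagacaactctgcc
Ctla4: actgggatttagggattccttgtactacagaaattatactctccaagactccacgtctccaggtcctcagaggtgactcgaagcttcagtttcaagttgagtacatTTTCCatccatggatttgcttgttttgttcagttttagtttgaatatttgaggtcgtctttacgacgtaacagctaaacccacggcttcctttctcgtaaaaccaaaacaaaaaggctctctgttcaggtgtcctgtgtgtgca
The Havcr2 window (chr11:46454681-46454930, plus strand) held 1 AP-1 match (TGANTCA), 200 to 194 bases before the start, and 1 Runx match (TGTGGT), 46 to 41 bases before it. The Pdcd1 window (chr1:94052554-94052803, minus strand) held 2 adjoining matches to the NFAT core (GGAAA, read as TTTCC on the gene's strand) between 28 and 19 bases before the start. The Ctla4 window (chr1:60908775-60909024, plus strand) held 1 such core, 144 to 140 bases before the start. The other motifs searched were CTTTGA (TCF/LEF), GGTGTGA (T-box), AAAGGTCA (Nr4a) and the interferon response element, none of which occurred in the printed windows. Among 32851 RefSeq promoters, windows with a match made up 6.75% for AP-1, 14.05% for Runx and 55.6% for the NFAT core. A match is a description of letters and not a measured site.

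The share of CD8 T cells with at least 1 UMI was the other readout of each gene. To compare at equal depth, each cell was thinned to 3000 UMIs, which left 234 control and 181 knockdown cells (185 and 169 were shallower). Havcr2 was then detected in 14.96% of control cells (10.6 to 20.2) and 27.6% of knockdown cells (21.3 to 34.7), intervals that do not overlap. Lag3 was detected in 25.2% (19.8 to 31.3) and 33.7% (26.9 to 41.1), and Ctla4 in 24.4% (19.0 to 30.4) and 33.1% (26.3 to 40.5), with intervals that overlap for both. For Pdcd1 the shares were 42.7% and 47.0%, and for Tox 54.7% and 60.2%, with intervals that overlap. Tigit (6.41% and 7.18%), Entpd1 (18.4% and 21.5%) and Cd96 (20.1% and 20.4%) also had overlapping intervals.

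Unthinned, Havcr2 was detected in 16.0% of control and 26.3% of knockdown CD8 T cells, Lag3 in 25.3% and 37.7%, Pdcd1 in 39.9% and 48.3%, and Tox in 56.8% and 62.0%. Background was read in tumour-like cells, which should lack these genes and were deeper before thinning (medians of 19825 and 15297 UMIs). Thinned to 3000 UMIs they held Havcr2 in 0.468% and 0.517% of cells, Lag3 in 0.643% and 0.546%, and Pdcd1 in 0.0292% of control cells and in 0 of 3479 knockdown cells. Ctla4 was the exception, at 5.53% and 3.97%. Every one of these shares lay below that of the same gene in CD8 T cells.

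**Figure D2:**
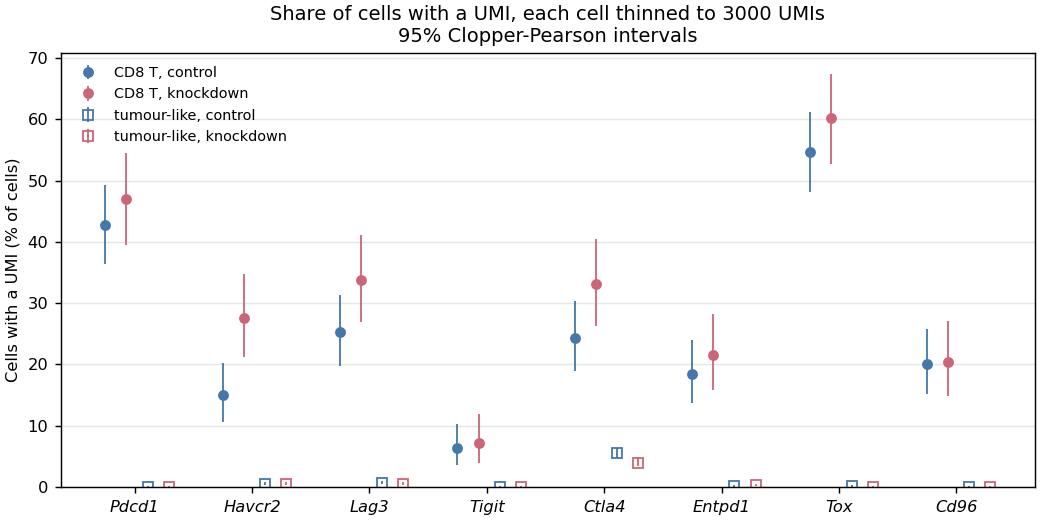
Share of cells with at least 1 UMI (percent) for each gene after thinning every cell to 3000 UMIs, in CD8 T cells (filled circles) and tumour-like cells (open squares), control in blue and knockdown in red, with 95% Clopper-Pearson intervals. The widest gap between libraries in CD8 T cells is that of Havcr2, 14.96% against 27.6%, and Ctla4 has tumour-like shares of 5.53% and 3.97%, against less than 1% for the other genes.

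The genes were also found together in single CD8 T cells. At 3000 UMIs per cell a control cell held a mean of 2.07 of the 8 genes and a knockdown cell 2.51. At least 3 were detected in 38.5% of control cells (32.2 to 45.0) and 48.1% of knockdown cells (40.6 to 55.6), and at least 5 in 4.70% (2.37 to 8.26) and 14.4% (9.60 to 20.3). The last pair, 11 of 234 and 26 of 181 cells, has intervals that do not overlap. No cell of either library held all 8.

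**Figure D3:**
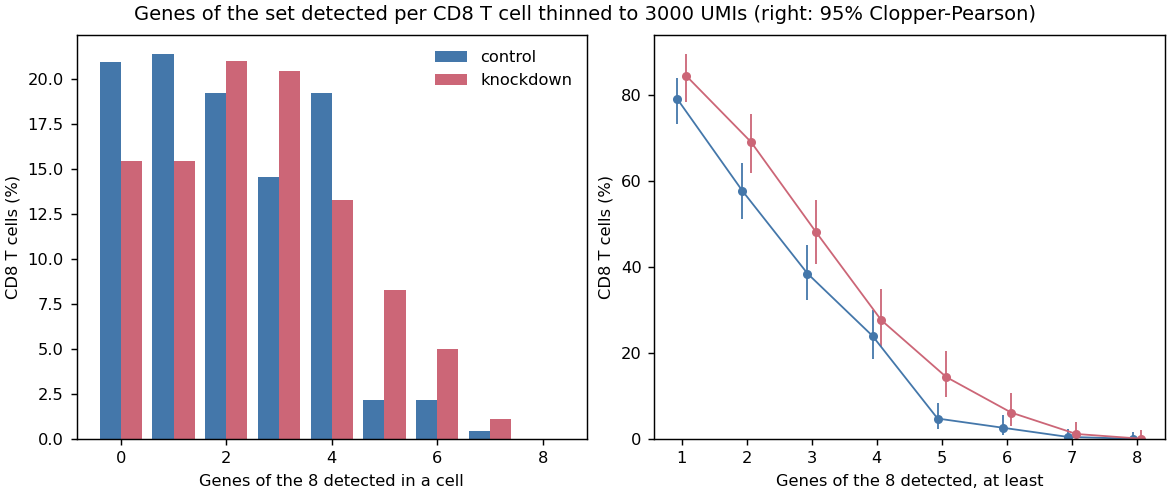
Number of the 8 genes detected per CD8 T cell thinned to 3000 UMIs: left, percent of cells at each number; right, percent with at least that many, with 95% Clopper-Pearson intervals; control in blue and knockdown in red. The libraries lie farthest apart in proportion at 5 or more genes, 4.70% against 14.4%.

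Of the 28 pairs of genes, 25 among control and 28 among knockdown cells had a higher share of the second gene in cells with the first than in cells without it. The control exceptions were Havcr2 with Entpd1, Ctla4 with Tigit and Ctla4 with Cd96. Pairs of other genes were not counted, so whether these numbers are particular to the set is not known. Havcr2 was detected in 21% of control cells with Pdcd1 (13.5 to 30.3) and in 10.4% of those without it (5.83 to 16.9). In the knockdown library it was detected in 40.0% of cells with Pdcd1 (29.5 to 51.2) and in 16.7% of those without (9.84 to 25.6). The control intervals for Havcr2 with and without Pdcd1 overlap. For Lag3 and Havcr2 by Tox they do not, while for Entpd1 and Cd96 by Tox they do. Lag3 was detected in 37.5% of control cells with Tox (29.1 to 46.5) and in 10.4% without (5.30 to 17.8), and Havcr2 in 22.7% with Tox (15.7 to 30.9) and 5.66% without (2.11 to 11.9). In the knockdown library the intervals of the same pairs overlap. Lag3 was detected in 38.5% with Tox (29.4 to 48.3) and 26.4% without (16.7 to 38.1), and Havcr2 in 30.3% with Tox (21.8 to 39.8) and 23.6% without (14.4 to 35.1). Among cells without Tox the Havcr2 intervals of the libraries do not overlap, while among cells with Tox they do. Whether the link with Tox differed between the libraries was not tested, and cells of 1 library are not replicates.

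Within CD8 T cells the levels were also read by cell state. Cells with Tcf7, a factor of memory and progenitor T cells, had lower values of all 8 genes than cells without it in both libraries, from few UMIs for Havcr2, Tigit and Entpd1 (1 to 4 in the cells with Tcf7). In the control library Pdcd1 was at 32.4 CPM in the 39 cells with Tcf7 and 202 CPM in the 380 without. For Tox the levels were 142 and 430 CPM, and for Havcr2 5.90 CPM (2 UMIs) and 57.9 CPM. The 23 knockdown cells with Tcf7 had 74.2 CPM of Pdcd1, 183 CPM of Tox and 5.71 CPM of Havcr2 (1 UMI), again below the 212, 458 and 104 CPM of the 327 cells without it. Median depths with and without Tcf7 were 4106 and 3133 UMIs in control and 2797 and 3047 UMIs in knockdown cells.

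Cells with Gzmb, which encodes the cytotoxic protease granzyme B, were compared between the libraries apart from cells without it. In cells with Gzmb (206 control, 183 knockdown) Havcr2 was at 64.2 and 136 CPM, a log2 ratio of 1.08 (0.62 to 1.56). Pdcd1 was at 151 and 233 CPM there (0.62, interval 0.30 to 0.94) and Tox at 298 and 417 CPM (0.49, interval 0.26 to 0.72). In cells without Gzmb (213 and 167) Pdcd1 was at 194 and 163 CPM (-0.25, interval -0.56 to 0.07), Tox at 455 and 439 CPM (-0.05, interval -0.25 to 0.15) and Havcr2 at 37.4 and 53.3 CPM (0.51, interval -0.12 to 1.15). Lag3 was higher in the knockdown library in both, with log2 ratios of 0.96 (0.56 to 1.38) and 0.70 (0.22 to 1.18). The difference between cells with and without Gzmb was not tested. Median depths in the split were close, 3235.5 and 3143 UMIs with Gzmb and 3195 and 2978 without.

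Havcr2 and Lag3 were higher in the knockdown library in CD8 T cells with and without a UMI of Mki67 or Top2a. In cells with Mki67 or Top2a the log2 ratio was 0.72 (0.17 to 1.27) for Havcr2 and 0.99 (0.50 to 1.498) for Lag3. In cells with neither it was 1.04 (0.54 to 1.57) and 0.73 (0.34 to 1.13). Tox was at 352 and 319 CPM in the cells with Mki67 or Top2a (-0.14, interval -0.36 to 0.08) and at 427 and 551 CPM in the others (0.37, interval 0.17 to 0.57). This split followed depth, with medians of 4356 and 4216 UMIs with Mki67 or Top2a and 2708.5 and 2621 without.

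**Figure D4:**
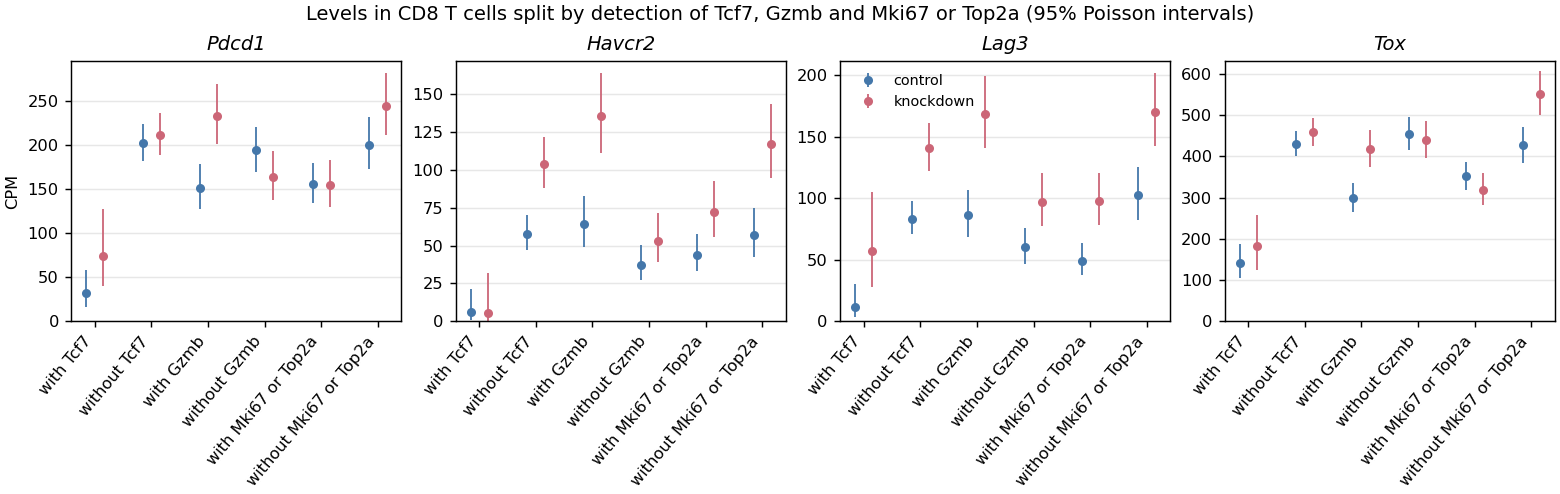
Levels (CPM, linear axis from 0) of 4 genes in CD8 T cells with and without a UMI of Tcf7, Gzmb, or Mki67 or Top2a, control in blue and knockdown in red, with 95% Poisson intervals. All 4 genes lie lower with Tcf7, and the Pdcd1 libraries part in cells with Gzmb (151 and 233 CPM) but overlap in cells without it (194 and 163 CPM).

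Other genes around these receptors were read in CD8 T cells by list. Among 13 further inhibitory receptors with at least 20 UMIs, Klra7 of the Ly49 family was called higher (15.7 to 32.2 CPM, log2 ratio 1.03) and the collagen receptor Lair1 lower (11.9 to 4.25 CPM, -1.49), while Cd160 (0.16) and Klrg1 (-1.06, interval -2.35 to 0.09) were not called. Klra genes are close copies of each other, so reads could be split among them. Of 10 costimulatory receptors Cd27 was called higher (65.7 to 99.0 CPM, 0.59, interval 0.26 to 0.93), and Tnfrsf9 (4-1BB) was at 522 and 719 CPM (0.46), under the fold. Cd28 was at 196 and 189 CPM (-0.05), and the adhesion receptor Cd2 at 195 and 143 CPM (-0.44, interval -0.68 to -0.21), also under the fold. None of 14 exhaustion and effector transcription factors was called, with Eomes at 0.40, Maf at 0.31, Batf at -0.14 and Ikzf2 at -0.40. Of 9 progenitor and memory genes 2 were called lower: Lef1, a partner of Tcf7 (35.7 to 17.6 CPM, -1.02), and S1pr1, which lets lymphocytes leave tissue (9.99 to 2.43 CPM, -2.04). Il7r (0.33) and Bach2 (0.42) were not called. Of 6 genes of the adenosine pathway around Entpd1, the adenosine receptor Adora2a was called higher (11.9 to 20.6 CPM, 0.79, interval 0.01 to 1.60), while Nt5e (0.56), Slc29a1 (0.10) and Ada (-0.51) were not called.

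Among 12 effector genes 4 were called higher and 1 lower. The pore-forming protein gene Prf1 was at 193 CPM among control and 431 CPM among knockdown cells (log2 ratio 1.16) and the chemokine gene Ccl3 at 100 and 252 CPM (1.33). Ccl4 (0.63, interval 0.52 to 0.75) and the death ligand gene Fasl (0.60, interval 0.23 to 0.96) were also called higher, near the log2 limit of 0.585. Gzma, a granzyme, was called lower at 447 and 144 CPM (-1.64), and Ccl5, a chemokine gene, was at 2747 and 1836 CPM (-0.58, interval -0.65 to -0.52), just under the fold. TMM scaling, which sets libraries to a common centre over genes, lowers log2 ratios in these cells by 0.05. That shift would put Ccl4, Fasl and Cd27 under the limit and the Adora2a interval over 0. It would put Ccl5 and the inhibitory receptor gene Cd5 (-0.57) past the limit as lower. The median log2 ratio was 0.31 for the effector genes, -0.02 for the other inhibitory receptors and 0.11 for the transcription factors, beside 0.03 over all genes. These counts stand beside 3.29% of all genes called higher and 2.38% called lower in these cells.

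The genes differed in how far they were limited to lymphocytes. Pdcd1 was 502-fold (252 to 1171) and Tox 304-fold (210 to 457) higher in control CD8 T cells than in control macrophages, where Pdcd1 had 8 UMIs. In the knockdown library the folds were 228 (142 to 389) and 247 (177 to 356). Havcr2 did not share this. It was at 59.3 CPM in control macrophages and 49.5 CPM in control CD8 T cells, a log2 ratio of CD8 T over macrophage of -0.26 (-0.56 to 0.03), so the order was not resolved. In the knockdown library CD8 T cells stood higher, 93.5 against 52.7 CPM (0.83, interval 0.58 to 1.07). Entpd1 was higher in macrophages than in CD8 T cells in both libraries, 141 against 57.1 CPM in the control and 116 against 70.4 CPM in the knockdown library. Free macrophage RNA was read from the macrophage markers other than C1q, which in CD8 T cells were at 1.31% of their macrophage level in control and 1.36% in knockdown cells. That share of the macrophage level comes to 1.57% of the Havcr2 and 3.22% of the Entpd1 counted in control CD8 T cells.

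In macrophages the libraries differed little for the genes that were well counted. Havcr2 was at 59.3 and 52.7 CPM from 1363 and 1094 UMIs, a log2 ratio of -0.17 (-0.29 to -0.06), and Entpd1 at 141 and 116 CPM from 3236 and 2401 UMIs (-0.28, interval -0.36 to -0.21). Lag3 was at 13.96 and 18.1 CPM (0.37, interval 0.16 to 0.59) and Ctla4 at 12.8 and 10.3 CPM (-0.32, interval -0.58 to -0.06). These Ctla4 levels lay below those of tumour-like cells, 18.5 and 13.9 CPM, and the source of the UMIs was not tested. Tox (29 and 36 UMIs), Tigit (2 and 7) and Cd96 (2 and 5) were sparse, with intervals on both sides of 0. Only Pdcd1 was called higher, from 8 control and 18 knockdown UMIs in the whole class (1.32, interval 0.04 to 2.73), while 13.5% of the 14886 genes with at least 20 UMIs were called higher there. TMM scaling, which sets libraries to a common centre over genes, moved all macrophage log2 ratios down by 0.14, which put Havcr2 at -0.31 and Entpd1 at -0.42, and Pdcd1 was then no longer called. The summed T cell markers in this class were at 9.74 CPM among control and 15.5 CPM among knockdown cells, with all 7 detected in each, and their part in the Pdcd1 count was not tested.

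NK cells held Tox, Ctla4, Cd96 and Entpd1 and little else of the set. Tox had 28 and 35 UMIs, 89.1 and 121 CPM (0.44, interval -0.32 to 1.21), and Ctla4 13 and 14 UMIs (0.22, interval -0.97 to 1.43). Entpd1 was called higher, with 11 control and 23 knockdown UMIs, 35.0 CPM (17.5 to 62.6) and 79.3 CPM (50.3 to 119), a log2 ratio of 1.18 (0.09 to 2.36). Its counts came from 8 and 13 cells. Cd96 had 17 and 6 UMIs, 54.1 and 20.7 CPM (-1.39, interval -3.02 to 0.02). Pdcd1 had 0 UMIs in the control NK cells, which allows up to 9.55 CPM (3 counts), and 12 in the knockdown library, 41.4 CPM and at least 4.34-fold higher, but 11 of the 12 UMIs came from 1 cell. Pdcd1 and Entpd1 make 2 of 8 members called higher, beside 1.64% of 13169 genes with at least 1 UMI, and none lower, beside 2.21%. Over the 4640 genes with at least 20 UMIs the shares were 2.95% and 4.18%, and of the 4 members among them Entpd1 was called. After thinning to 3000 UMIs, 0 members were called. Lag3 (6 and 7 UMIs), Tigit (3 and 3) and Havcr2 (0 and 4) could not be told apart between libraries at this depth.

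Regulatory T cells were few, and 1 cell weighed on each library. Ctla4 was counted at 26 UMIs in each library, 284 CPM (19 control cells) and 945 CPM (13 knockdown cells), a log2 ratio of 1.73 (0.89 to 2.58), but 21 of the 26 knockdown UMIs lay in 1 cell. Without the 5% of cells with the most UMIs the log2 ratio was -1.05, and with every cell weighted equally it was -0.16. Tox had 12 and 18 UMIs, 131 and 655 CPM (2.32, interval 1.19 to 3.51), and Pdcd1, Havcr2 and Entpd1 had 2 to 7 UMIs each. Lag3 (4 and 4 UMIs), Tigit (2 and 1) and Cd96 (1 and 1) were not called, with intervals on both sides of 0. In all 5 of 8 members were called higher, beside 4.05% of 10271 genes with at least 1 UMI and 14.3% of the 1012 with at least 20. Of the members only Ctla4 and Tox reach 20 UMIs here, so Pdcd1, Havcr2 and Entpd1 lie outside the latter share. The class totals differed, 91502 control and 27499 knockdown UMIs, and 1 control cell of 34087 UMIs held 37.3% of its total. The summed T cell markers moved with the members, standing at 1454 CPM among control and 4800.2 CPM among knockdown cells. The summed CD8 T cell markers (6 genes) were at 1016 and 5127 CPM, and 2 cells of each library in this class also held Cd8a or Cd8b1. The summed tumour-like markers (6 genes) were at 328 CPM, from 30 UMIs, among control cells, against 282 CPM in control tumour-like cells. Among knockdown regulatory T cells they had 0 UMIs. The part of these marker differences in the ratios was not tested. TMM scaling lowered each log2 ratio in this class by 0.59, which left 4 members called, thinning, with 4 control and 2 knockdown cells, left 1, and the gate without Cd3 left 1.

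CD4 T cells showed no called member, beside 6.7% of 1865 genes called higher among those with at least 20 UMIs, which 3 of the 8 members reach. Ctla4 had 15 and 17 UMIs, 132 and 186 CPM (0.50, interval -0.59 to 1.61), and Tox 17 and 18 UMIs, 149 and 197 CPM (0.40, interval -0.64 to 1.45). Pdcd1 was at 96.5 and 98.7 CPM from 11 and 9 UMIs. Cd96 had 7 and 1 UMIs (-2.49, interval -7.98 to 0.47), Entpd1 8 and 3 (-1.09, interval -3.64 to 0.97) and Lag3 4 and 3 (-0.09, interval -2.86 to 2.47). The median over the 6 members with a fold was -0.03. Havcr2 (3 and 0 UMIs) and Tigit (1 and 0) were at or under the 3-count limit in both libraries and have no fold. Median of ratios scaling lowered the log2 ratios in this class by 0.24. T cells with Cd3 alone had 3 members called higher, beside 4.18% of 15923 genes with at least 1 UMI. With at least 20 UMIs, which leaves out Havcr2, the share was 6.58% of 8531 genes. Tox among them stood at 96.3 and 163 CPM (0.76, interval 0.36 to 1.17).

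**Figure D5:**
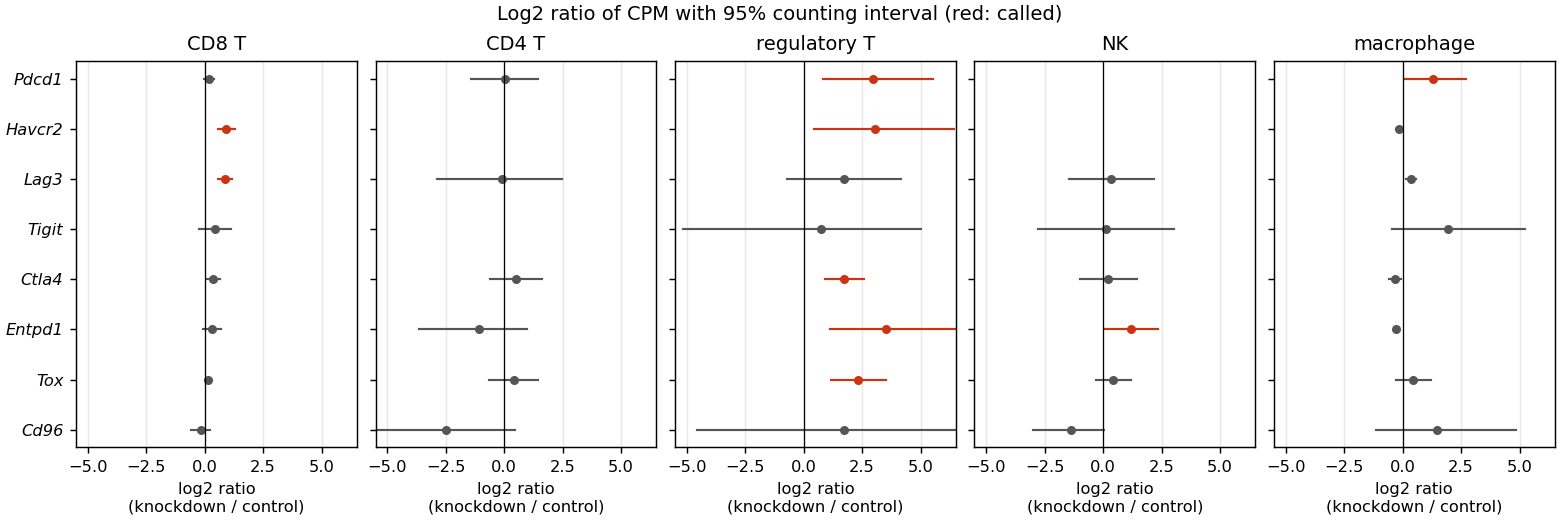
Log2 ratio of CPM, knockdown over control, for each gene in 5 cell classes, with 95% counting intervals cut at the panel edge; red marks ratios of at least 1.5-fold whose interval leaves out 0, and genes with 0 UMIs in a library have no point. Intervals are narrow for the well-counted genes in CD8 T cells and macrophages, and wide for sparse genes such as Tigit and Cd96 in macrophages (2 and 7, and 2 and 5 UMIs).

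The order of the classes differed by gene. In the control library Ctla4 was highest in regulatory T cells, at 284 CPM against 132 CPM in CD4 T cells (log2 ratio 1.11, interval 0.14 to 2.13), after which CD4 T cells, CD8 T cells (98.5 CPM) and T cells with Cd3 alone (97.2 CPM) were not resolved from each neighbour. Tox was highest in control CD8 T cells, at 384 CPM against 149 CPM in CD4 T cells (1.36, interval 0.68 to 2.15), and the CD4 T, regulatory T, Cd3-only and NK classes were not resolved from each neighbour. Pdcd1 was highest in control CD8 T cells at 175 CPM, next to 96.5 CPM in CD4 T cells (0.86), with an interval that reached just under 0. In the knockdown library regulatory T cells ranked above CD8 T cells for Tox, at 655 and 429 CPM, and for Pdcd1, at 255 and 197 CPM, neither resolved. Cd96 in control CD4 T, CD8 T and NK cells lay at 61.4, 59.5 and 54.1 CPM, again not resolved.

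Ctla4 was counted in tumour-like cells, where every other member stood at 2.07 CPM or less. It had 1404 UMIs in control and 855 in knockdown cells, 18.5 CPM (17.5 to 19.5) and 13.9 CPM (13.0 to 14.9), a log2 ratio of -0.41 (-0.54 to -0.29). A UMI was seen in 30.2% and 20.2% of these cells before thinning. Genes that accompany Ctla4 in T cells were scarce in them: Trac had 35 and 34 UMIs, Cd28 17 and 16, and Icos 3 and 7, against 887 and 763, 412 and 311, and 173 and 150 in the far fewer CD8 T cells. Split by 12 genes, Ctla4 stood between 9.23 and 20.2 CPM in each subset, the lowest being the 26 knockdown cells with Gfpt2. Control tumour-like cells with and without Top2a were at 18.1 and 19.4 CPM, those with and without Cryab at 18.9 and 18.3 CPM, and those with and without Tnnt2 at 19.0 and 18.0 CPM. In GENCODE M21 (GRCm38) the Ctla4 gene spans chr1:60887000-60915832 and holds Rpl18-ps1, a pseudogene of the ribosomal protein gene Rpl18, at chr1:60900898-60901422, which overlaps 0 of its exons. Rpl18 itself was at 3682 and 3430 CPM in tumour-like cells. Where the Ctla4 UMIs of tumour-like cells come from was not tested.

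Of the ligands of these receptors, Cd274 (PD-L1, ligand of Pdcd1) was at 182 and 192 CPM in macrophages (0.08, interval 0.02 to 0.14) and at 34.3 and 46.8 CPM in tumour-like cells (0.45, interval 0.37 to 0.52). Pdcd1lg2, the other ligand of Pdcd1, was at 15.9 and 12.03 CPM in macrophages (-0.40, interval -0.64 to -0.17). The Ctla4 ligand gene Cd86 was at 380 and 366 CPM in macrophages (-0.05), and Pvr, ligand of Tigit and Cd96, at 15.1 and 17.5 CPM in tumour-like cells (0.21). Nectin3, a ligand of Tigit, was past 1.5-fold in macrophages, from 126 to 315 UMIs, 5.48 and 15.2 CPM (1.47, interval 1.17 to 1.78). By the 1.5-fold rule 13.5% of the 14886 genes with at least 20 UMIs were called higher in this class. Tumour-like cells held more Nectin3, 43.5 and 42.6 CPM (-0.03). The 6 tumour-like markers summed to 36.9 and 92.8 CPM in macrophages, beside 282 and 297 CPM in tumour-like cells. Their part in the Nectin3 ratio was not tested. Fgl1, a ligand of Lag3, had 0 and 5 UMIs in macrophages. In CD8 T cells none of 9 ligand genes with at least 20 UMIs was called, with Pdcd1lg2 at 0.28, Cd86 at 0.22, Lgals3 at -0.33 and Pvr at -0.76.

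Likeness of pattern was described by Pearson's r of log2(CPM + 10) over 14 pools, the 7 classes in each of 2 libraries, among genes with at least 200 UMIs in the lymphocyte pools. The pools of 1 library share their preparation and depth, and the small pools are noisy. Tox was most like Zap70 (r 0.99), Camk4 (0.98) and Stat4 (0.98). Ctla4 was most like Isg20 (0.98), Tnfrsf4 (0.97) and Rnf125 (0.97), and Cd96 most like Thy1 (0.95), Vps37b (0.94) and Sla2 (0.94). Lag3 was most like Crbn (0.94), Crem (0.94) and Wnk1 (0.92), Pdcd1 most like Ralgapa1 (0.93), Fnbp4 (0.93) and Crbn (0.92), and Entpd1 most like Ccl4 (0.95), Tut7 (0.95) and Cmtm7 (0.94). Tigit (Cish, Cabin1, Ss18) and Havcr2 (Mindy2, Mxi1, Rmnd5a) had leading values of 0.91 and 0.86.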

How the data were processed

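The authors deposited raw UMI counts for each gene in each cell, not normalised. Per the file headers these came from Cell Ranger 6.1.0, while the submitters' processing notes name version 3.1.0. The genome build and annotation are not given in the sources used here. Cells with at least 200 genes and at most 20% mitochondrial UMIs were kept, and doublets were removed by rank of the Scrublet score at 0.8% per 1000 cells (1148 control, 1322 knockdown). Counts were summed per class and library and divided by the class total (CPM), with exact Poisson intervals for levels, Clopper-Pearson intervals for shares and conditional exact binomial intervals for ratios. Calculations used Python 3.11.15, numpy 2.4.6, scipy 1.17.1, scanpy 1.11.5 and R 4.3.3 with edgeR 4.0.16 for TMM factors only, and were tested on simulated data. Members, gates and lists were chosen with earlier results of these data known. Members were described in each class, and genes of the lists were named from the 2 at each end of the log2 ratios with at least 20 UMIs in 1 library, not all of them in NK and none in regulatory T cells, with further list genes named after their values were seen. One T cell marker of the list is not reported here. Alternatives covered doublets, mitochondrial limit, gates, scaling, cell weighting, thinning, the fold and the filter on low counts.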

Additional observations from a re-analysis of the deposited data

Results flagged for a closer look

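Havcr2 had intervals that left out 0 on opposite sides in different classes: its log2 ratio was 0.92 in CD8 T cells, 3.06 in regulatory T cells and 1.71 in T cells with Cd3 alone, against -0.17 in macrophages. Ctla4 did the same, at 0.37 in CD8 T cells, 1.73 in regulatory T cells and 0.52 in T cells with Cd3 alone, against -0.32 in macrophages and -0.41 in tumour-like cells. In macrophages Ctla4 lay below its tumour-like level, at 12.8 against 18.5 CPM in control and 10.3 against 13.9 CPM in knockdown cells. Where its UMIs in these 2 classes come from was not tested. The regulatory T cell value of Ctla4 rests on 1 cell with 21 of 26 knockdown UMIs and turned to -1.05 without the 5% of cells with the most UMIs and to -0.16 with cells weighted equally. Entpd1 stood at 3.54 in regulatory T cells (2 and 7 UMIs) and 1.18 in NK cells, against -0.28 in macrophages. With 1 library in each group, the difference between classes was not tested for any of the 3 genes. T cells with Cd3 and without Cd4, Cd8 or Foxp3, a class outside the set's own gates, also had 3 members called higher: Havcr2 (1.71, 6 and 11 UMIs), Lag3 (1.23, 16 and 21 UMIs) and Tox (0.76, 107 and 102 UMIs), beside 4.18% of 15923 genes with at least 1 UMI. TMM scaling lowered log2 ratios in that class by 0.10. The summed T cell markers were at 1291 CPM among control and 2118 CPM among knockdown cells and the gamma-delta T cell markers at 374 and 139 CPM there, and their part in these ratios was not tested.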

How the results depend on the processing

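No paired analysis was possible because each group had 1 library. In CD8 T cells the median log2 ratio ranged from 0.18 to 0.44 over 10 alternatives, Havcr2 from 0.86 to 1.18 and Lag3 from 0.77 to 1.00. The number of CD8 T members called was 0 at 2-fold and 3 after thinning, where Ctla4 reached 0.78. In CD4 T cells 1 member was called with doublets removed at 1.5 times the rate, an alternative added after seeing the data. In regulatory T cells 1 member was called after thinning (4 and 2 cells) and 3 without the 5% of cells with the most UMIs, and without the Cd3 requirement (21 and 19 cells) the median was 0.55 with 1 called. Ctla4 in regulatory T cells changed sign, to -0.16 with cells weighted equally and -1.05 without the 5% of cells with the most UMIs. In NK cells 0 members were called after thinning. In macrophages 2 were called with no doublet removal, 3 with cells of both gates kept, and 0 after TMM or median of ratios scaling, after thinning or with at least 20 C1q UMIs per 10000. Over all settings, 79 of 80 single values in CD8 T cells and 72 of 79 in macrophages stayed inside their counting interval. The cause was not tested. Scrublet's own threshold was not run as an alternative, because it marked 1013 control cells and 1 knockdown cell. Few cells limit CD4 T, regulatory T and NK values.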

Other observations

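Gene groups around the receptors in NK cells, which the report does not describe, had calls in each direction. Of 11 effector genes with at least 20 UMIs, 4 were called higher and 0 lower. Ccl4, a chemokine gene, was at 379 CPM among control and 1587 CPM among knockdown cells (log2 ratio 2.07, interval 1.77 to 2.37), and Xcl1, a chemokine gene of NK and CD8 T cells, at 1053 and 2015 CPM (0.94, interval 0.74 to 1.13). Of 6 other inhibitory receptors the Ly49 gene Klra7 was called higher (283 and 666 CPM, 1.23) and 2 were called lower, Cd244a (172 and 96.6 CPM, -0.83) and Pecam1 (165 and 96.6 CPM, -0.78). Of 10 transcription factors Nr4a2 was called higher (0.63) and Ikzf2 lower (111 and 41.4 CPM, -1.43). Cd226, which competes with Tigit and Cd96 for Pvr, was called lower (98.6 and 48.3 CPM, -1.03) from 31 and 14 UMIs. These rest on 49 cells in each library, and 2.95% of genes were called higher and 4.18% lower in the class.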
